A study of Mus musculus with 17 samples.

Results

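The lungs of 6 mice that received ovalbumin and a monoclonal antibody against RGMb were compared with those of 6 mice that received saline, to describe which genes remained away from the saline level under the antibody. All 19751 genes with a probe set of 1 gene symbol entered the comparison, so none was chosen by its values, and 12 of the 17 arrays of the series belong to it. All mice were Balb/c, with 1 lung array per mouse (Affymetrix Mouse Gene ST). Saline mice were given saline at sensitization and at challenge, and the labels name no antibody for them. Mice of the anti-RGMb group were given ovalbumin at both steps together with the antibody, while 5 further ovalbumin mice received an isotype antibody and are set beside the comparison. The mice came from 2 replicate sets, here called experiments, with 3 saline and 3 anti-RGMb mice in each, named 1, 2 and 3 in experiment 1 and 1-2, 2-2 and 3-2 in experiment 2. No group with anti-RGMb and without ovalbumin was analysed here, so allergen response that remained and an effect of the antibody itself cannot be told apart.

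Ovalbumin given to a sensitized mouse raises a type 2 response in the airways: eosinophils and alternatively activated macrophages gather, airway epithelium turns to mucus production, and plasma cells appear. RGMb is a membrane-bound co-receptor of bone morphogenetic proteins (BMPs) that binds neogenin and also PD-L2. The antibody binds the protein, so the arrays show what the lung transcribed while it was present.

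Arrays within an experiment were alike across genes (lowest correlation 0.975 in experiment 1 and 0.968 in experiment 2), and those of experiment 2 were brighter (median intensity 362.1 to 386.2 against 120.5 to 124.8). Levels are therefore given as log2 minus the mean of the 3 saline mice of the same experiment. Lung identity genes were bright in saline mice (Sftpc at 13.49 and 14.04 log2 units in experiments 1 and 2) and not called under anti-RGMb: Sftpc of alveolar type 2 cells differed by -0.03, Scgb1a1 of club cells by -0.04, Ager of alveolar type 1 cells by -0.08, Foxj1 of ciliated cells by 0.05 and Cdh5 of endothelium by -0.13. Genes of heart and skeletal muscle, fat, thymus, and red cells or platelets, which a lung sample can carry, had 0 of 30, 0 of 18, 0 of 18 and 0 of 14 members called by limma in either direction. Muscle gene levels spread widely, as for Myl7 (-2.55 to 0.79 in anti-RGMb mice and -0.69 to 1.25 in saline mice). Because whole lung was measured, fewer cells of a type and less RNA per cell cannot be told apart. Anti-RGMb mouse 1 stood apart from the other 5 of its group, with 48 genes over 1 log2 unit above and 18 over 1 unit below all of them. For several genes and lists that it moved, values are given with and without it.

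Under anti-RGMb the lungs kept raised type 2 effector, macrophage, mucus and cell division genes, and small falls in some endothelial and epithelial genes. At an adjusted p under 0.05 (limma fitted to all 17 arrays, 6 mice in each of these groups), 1284 genes were off the saline level (6.5% of all tested). Of these 842 were higher (4.26% of all tested) and 442 lower (2.24%). The rises were the larger changes: 122 genes were at least 2-fold higher (0.618%) and 23 at least 2 log2 units higher, while Pon1 alone was at least 2-fold lower (0.00506%). The median of the called rises was 0.50 log2 units and that of the called falls -0.26, and 426 of the 442 falls were smaller than 0.5 units. Of the called genes, 935 had no overlap between the 12 mice, 664 higher and 271 lower, against 1351 of all genes (6.84%). Saline levels are centred on the saline mean of their own experiment, which narrows their spread. A lack of overlap, here and below, is therefore a description only. For 93.3% of all genes the 95% interval of the difference lay within 0.5 log2 units of saline. Between isotype and saline mice 7034 genes were called (35.6%), and between anti-RGMb and isotype mice 4180 (21.2%). These comparisons share arrays, so their values are set side by side, and a count of genes past 2 of them is a description only.

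The split between rises and falls moved with the scaling of the arrays and with the arrays in the fit. With each array's median subtracted, 843 genes were higher and 700 lower (54.6% of calls higher, against 65.6%). With only the 12 anti-RGMb and saline arrays in the fit, 1136 were higher and 873 lower (56.5% of calls higher). Without anti-RGMb mouse 1, 743 genes were higher and 308 lower, with 981 of the 1284 calls kept, 303 lost, 70 gained and 0 changed in sign. The number of falls was 208 without anti-RGMb mouse 2, 229 without anti-RGMb mouse 3, 287 without anti-RGMb mouse 1-2, 207 without saline mouse 1-2 and 252 without saline mouse 2-2.

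The largest rise was that of Rnase2a, a member of the eosinophil-associated ribonuclease family, which by itself does not mark eosinophil granules. Its relative level was 4.91 at the lowest, 6.81 at the median and 7.98 at the highest in anti-RGMb mice, against -0.16 to 0.25 in saline mice and 7.21 to 8.93 in isotype mice. Anti-RGMb and saline mice did not overlap, and the difference was 6.78 ± 0.39 log2 units (± is the standard error, adjusted p = 3.52e-09). Anti-RGMb mouse 1 was the lowest of its group, and without it the difference was 7.23. Ccl8, a chemokine, stood at 3.87 to 5.41 (median 4.90) in anti-RGMb mice and at -0.23 to 0.25 in saline mice (4.83 ± 0.18, adjusted p = 1.12e-11). Saa3, an acute phase protein gene, stood at 3.34 to 3.77 (median 3.60) in anti-RGMb mice against -0.40 to 0.23 in saline mice (3.58 ± 0.11, adjusted p = 2.18e-12). All of these mice were far above every saline mouse.

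**Figure D1:**
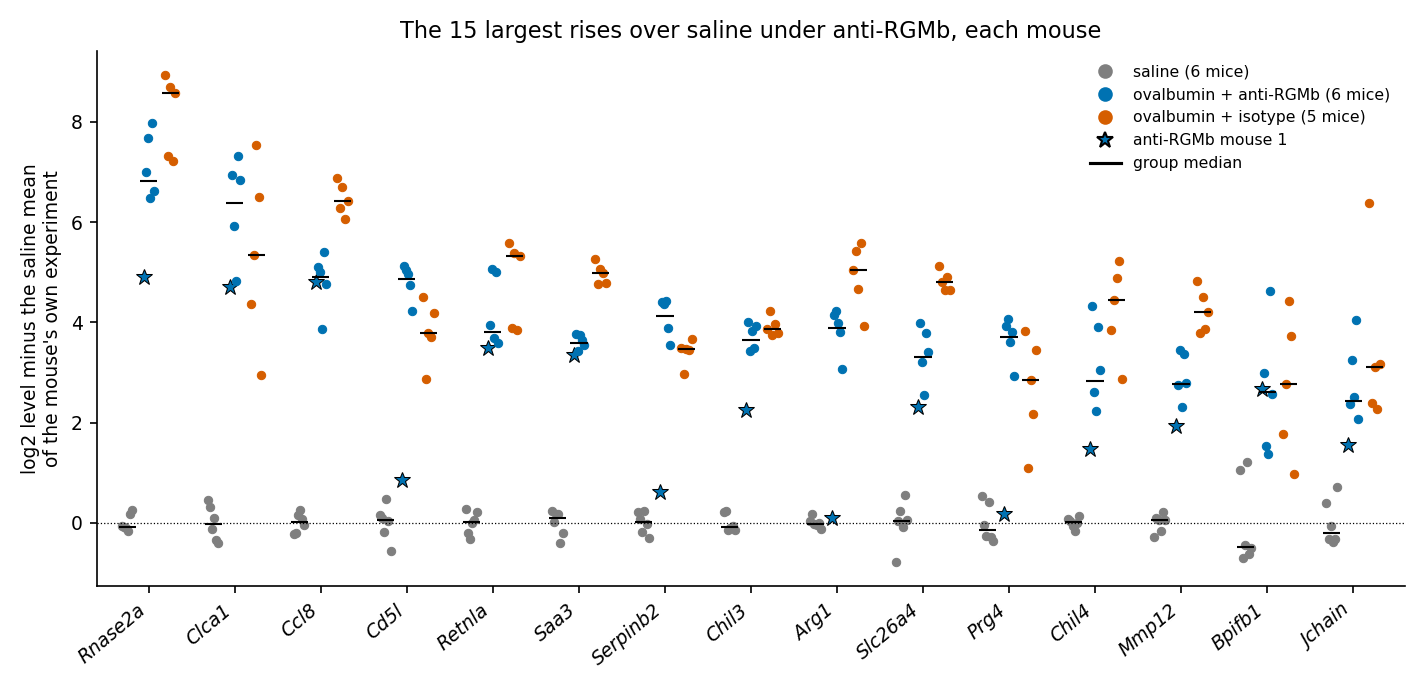
Log2 level of the 15 genes with the largest rise over saline, relative to the mean of that experiment's saline mice; each point is a mouse (6 saline, 6 anti-RGMb and 5 isotype), bars are group medians and the star is anti-RGMb mouse 1. Rnase2a reached 4.91 to 7.98 under anti-RGMb, and for Cd5l, Serpinb2, Arg1 and Prg4 mouse 1 lay below the other 5 anti-RGMb mice.

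Of the 15 largest rises 8 were dim in saline mice, under the lower quartile of their array, and the size of such a rise is uncertain. They were Rnase2a, Clca1, Ccl8, Cd5l, Serpinb2, Arg1, Prg4 and Chil4. All 15 stayed called in each of the 17 fits that left out 1 mouse. Retnla, which encodes RELM-alpha of alternatively activated macrophages and airway epithelium, rose by 4.13 ± 0.27, and the chitinase-like genes Chil3 and Chil4 by 3.49 ± 0.19 and 2.93 ± 0.40. The macrophage elastase gene Mmp12 was higher by 2.77 ± 0.21, the airway secretory gene Bpifb1 by 2.63 ± 0.60 and Jchain, which joins polymeric immunoglobulin, by 2.63 ± 0.51. For Bpifb1 the saline mice themselves spread from -0.70 to 1.21, and the anti-RGMb mice from 1.38 to 4.63.

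The promoter of Retnla is shown because it carries the spacing that STAT6, the transcription factor of interleukin 4 and interleukin 13 signalling, favours (TTC and GAA with 4 bases between them, the same on both strands, with the match in capitals). Of the 15 largest rises 12 had promoters in the RefSeq table (GRCm38.p6, 250 bases before to 50 after the start), and 2 of their 15 promoters held the motif (13.3%, those of Retnla and Cd5l), against 6.22% of the promoters of all genes tested. The 250 bases before the start are printed.
Retnla (chr16:48842359-48842608, plus strand): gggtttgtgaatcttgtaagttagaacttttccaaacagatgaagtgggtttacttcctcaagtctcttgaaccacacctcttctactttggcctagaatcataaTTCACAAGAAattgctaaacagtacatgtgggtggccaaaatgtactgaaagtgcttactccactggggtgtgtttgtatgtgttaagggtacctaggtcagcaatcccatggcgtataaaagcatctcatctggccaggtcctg

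Of 32 measured genes of type 2 cytokines, receptors and effectors, 14 were higher, 0 lower and 18 not past the threshold (median 0.39, against -0.01 over all genes, and 1.13 in isotype mice). Of all genes 4.26% were higher and 2.24% lower. Interleukin genes of the list were not called, those of receptors aside. Il13, the cytokine that drives mucus production, stood at -0.29 to 0.33 (median 0.25) in anti-RGMb mice, -0.12 to 0.13 in saline mice and 0.42 to 1.39 in isotype mice. Anti-RGMb and saline mice overlapped through anti-RGMb mouse 1 (-0.29), while the others were at 0.23 to 0.33. The difference was 0.18 ± 0.12 (adjusted p = 0.462), or 0.26 without mouse 1 (adjusted p = 0.244), not past the threshold either way. Il5, which sustains eosinophils, differed by 0.04 (interval -0.19 to 0.27) and the alarmin Il33 by 0.20 (0.00 to 0.40), neither past the threshold. Il5 was under the array's lower quartile in both groups and Il4 in saline mice, so small changes of these cytokines may not be detectable here. Il4 was 0.22 to 0.67 in anti-RGMb mice against -0.23 to 0.15 in saline mice, groups that did not overlap. Its difference of 0.47 ± 0.16 missed the threshold (adjusted p = 0.0885) but passed without isotype mouse 3 or 2-2 and with only the 12 arrays of these groups in the fit (adjusted p = 0.00486).

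Chemokine genes of the same list were well above saline. Ccl11 (eotaxin), which attracts eosinophils, reached 0.96 to 2.13 (median 1.66) in anti-RGMb mice, -0.13 to 0.23 in saline mice and 3.09 to 3.51 in isotype mice. The 3 groups did not overlap, and the differences were 1.60 ± 0.14 from saline (adjusted p = 6.6e-07) and -1.73 from isotype (adjusted p = 1.68e-06). Ccl17, a ligand of CCR4 on type 2 T cells, rose by 1.48 ± 0.11. Ccl24, another eotaxin, rose by 1.10 ± 0.21 (1.28 without mouse 1), with mouse 1 at 0.07 and the other 5 at 0.89 to 1.49. Il13ra2, the decoy receptor of interleukin 13, was at 0.28 (adjusted p = 0.114) against 1.35 in isotype mice, and it passed without isotype mouse 2-2 and with only the 12 arrays in the fit (adjusted p = 0.0155).

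Of 14 measured eosinophil genes 11 were higher and 0 lower (median 0.79, 1.56 in isotype mice), where 4.26% of all genes were higher. Their mean level per mouse was 0.82 to 1.76 in anti-RGMb mice, -0.15 to 0.09 in saline mice and 1.85 to 2.19 in isotype mice. The lowest anti-RGMb mouse was mouse 1. Adgre1, the F4/80 antigen of eosinophils and macrophages, rose by 1.74 ± 0.10, the lipoxygenase gene Alox15 by 2.30 ± 0.20 and the eotaxin receptor gene Ccr3 by 2.05 ± 0.17. Rnase2a was called in all 17 fits that left out 1 mouse, while the granule protein genes Prg2 and Epx were less firm. Prg3 was not called (0.25, adjusted p = 0.137), at -0.08 to 0.70 in anti-RGMb mice and -0.19 to 0.14 in saline mice. Prg2 (major basic protein) was -0.52 in mouse 1 and 1.08 to 2.15 in the others (1.11 ± 0.28, adjusted p = 0.0203), or 1.43 without mouse 1, and its call was lost without anti-RGMb mouse 2, 3 or 1-2 or saline mouse 1-2 (adjusted p up to 0.0607). Epx (eosinophil peroxidase) was -0.28 in mouse 1 and 0.53 to 1.41 in the others (0.65 ± 0.18, adjusted p = 0.0407), or 0.81 without mouse 1 (adjusted p = 0.00246). Its call was lost in 10 fits, without anti-RGMb mouse 2, 3, 1-2 or 3-2, isotype mouse 2, or saline mouse 1, 2, 1-2, 2-2 or 3-2 (adjusted p up to 0.102).

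Mast cell and basophil genes divided. Of 19 measured genes 5 were higher and 0 lower (median 0.22, 0.38 in isotype mice), where 4.26% of all genes were higher. Cpa3, carboxypeptidase of mast cells and basophils, rose by 1.16 ± 0.14, the basophil protease gene Mcpt8 by 1.55 ± 0.28 and the tryptase genes Tpsab1 and Tpsb2 by 0.33 ± 0.06 and 0.24 ± 0.06. The mucosal mast cell protease gene Mcpt1 was at -0.03 to 0.36 (median 0.19) in anti-RGMb mice, -0.17 to 0.29 in saline mice and 0.36 to 4.18 in isotype mice, so anti-RGMb and saline mice overlapped (0.19, interval -0.67 to 1.05). Mcpt2, of the same cells, was at 0.40 to 1.11 in anti-RGMb mice and -0.30 to 0.48 in saline mice. It missed the threshold (0.76 ± 0.46, adjusted p = 0.419) and passed with only the 12 arrays in the fit (adjusted p = 0.00225).

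Some mucus genes of the airway epithelium remained above saline. Of 31 goblet cell and mucus genes 9 were higher, 0 lower and 22 not past the threshold (median 0.24, 0.34 in isotype mice), where 4.26% of all genes were higher. The mean level was 0.54 to 1.21 in anti-RGMb mice, -0.10 to 0.17 in saline mice and 0.53 to 1.38 in isotype mice. The goblet cell marker genes Foxa3 (0.26, adjusted p = 0.141) and Spdef (0.06, adjusted p = 0.796) were not called. Clca1, which goblet cells secrete, reached 4.71 to 7.31 (median 6.38) in anti-RGMb mice, -0.41 to 0.46 in saline mice and 2.94 to 7.53 in isotype mice. The ovalbumin groups overlapped: the difference was 6.09 ± 0.61 from saline (adjusted p = 3.57e-06) and 0.72 from isotype (interval -0.63 to 2.07, adjusted p = 0.48). Agr2, needed to fold mucins, rose by 1.90 ± 0.39, and Pigr, which carries polymeric antibody across epithelium, by 1.28 ± 0.15.

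The anion exchanger gene Slc26a4 (pendrin) was at 2.31 to 3.99 in anti-RGMb and 4.64 to 5.12 in isotype mice (-1.63 between them, adjusted p = 0.000308, and 3.21 ± 0.25 over saline). The mucin genes were borderline. Muc5ac was at 0.78 to 3.14 in anti-RGMb mice and -0.26 to 0.47 in saline mice, without overlap (2.06 ± 0.60, adjusted p = 0.0488), and Muc5b at 0.64 to 2.96 and -0.95 to 1.32 (1.81 ± 0.52, adjusted p = 0.0453). Muc5ac lost its call in 10 fits, without anti-RGMb mouse 2, 3, 1-2 or 3-2 or saline mouse 1, 2, 3, 1-2, 2-2 or 3-2 (adjusted p up to 0.121). Muc5b lost it in 10, without anti-RGMb mouse 1, 2, 3, 1-2 or 3-2, isotype mouse 1, or saline mouse 2, 3, 1-2 or 3-2 (adjusted p up to 0.121).

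Macrophage genes rose broadly, and the counts that follow stand beside 4.26% of all genes higher. Of 28 genes of interstitial macrophages and monocytes 24 were higher and 0 lower (median 0.89, 1.56 in isotype mice), and their mean level was 0.89 to 1.20 in anti-RGMb mice, -0.09 to 0.10 in saline mice and 1.48 to 1.88 in isotype mice, groups that did not overlap. The complement genes C1qa and C1qb rose by 1.60 ± 0.09 and 1.65 ± 0.10, the folate receptor gene Folr2 by 1.66 ± 0.11 and the low-affinity antibody receptor gene Fcgr3 by 1.18 ± 0.08. Of 29 genes of complement and pattern recognition 17 were higher (median 0.61), among them Cfp (properdin, 1.72 ± 0.08) and C3ar1 (anaphylatoxin receptor, 2.19 ± 0.11). Alveolar macrophage genes were higher in 7 of 20 cases (median 0.23), with Msr1, a scavenger receptor, at 1.64 ± 0.15 and Ctsk, a cathepsin, at 1.20 ± 0.16. Lysosomal genes were higher in 15 of 29 cases, by small steps such as 0.56 ± 0.06 for the protease gene Ctsb and 0.46 ± 0.06 for Gusb, a glycosidase (median 0.23, 0.67 in isotype mice).

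A set of macrophage genes known from serosal cavities and tissue remodelling was also raised. The list of 14 was put together after values had been seen, so its counts are only a description: 10 were higher and 0 lower, with a median of 1.77 (1.57 in isotype mice), or 2.10 without anti-RGMb mouse 1. Cd5l, a secreted inhibitor of macrophage apoptosis, was 0.85 in mouse 1 and 4.23 to 5.12 in the others, against -0.57 to 0.47 in saline mice and 2.86 to 4.50 in isotype mice. Its difference from saline was 4.16 ± 0.55 with mouse 1 and 4.85 ± 0.23 without it. Arg1, which degrades arginine, was 0.10 in mouse 1 and 3.06 to 4.23 in the others (3.22 ± 0.49, or 3.82 without mouse 1). Serpinb2, an inhibitor of plasminogen activators, was 0.61 and 3.54 to 4.43 (3.54 ± 0.46, or 4.13), and Prg4 (lubricin) was 0.17 and 2.93 to 4.07 (3.08 ± 0.56, or 3.73). Mouse 1 was the lowest of its group for all of these genes.

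The same mouse alone among anti-RGMb mice had high interferon-stimulated genes. The mean level of the 27 measured genes was 1.58 in mouse 1, at most 0.12 in the other anti-RGMb mice, -0.12 to 0.09 in saline mice and 0.01 to 0.73 in isotype mice. Irf7, a regulator of interferon genes, was 3.26 in mouse 1 (median of the group 0.18), the antiviral gene Mx1 2.21 (0.29) and Ifit1 1.98 (-0.08). Of the 27 genes 1 was called, Rsad2 (0.63, adjusted p = 0.0333), a call lost in 8 fits, without anti-RGMb mouse 2, 3 or 2-2 or saline mouse 1, 2, 3, 1-2 or 2-2. The median of the list was 0.28 and, without mouse 1, 0.06. Without mouse 1 the differences of Irf7, Mx1 and Ifit1 from saline went from 0.66, 0.62 and 0.24 to 0.12, 0.29 and -0.12. Without it, eosinophil genes had 11 higher, type 2 genes 14 and proliferation genes 32, while the lower genes went from 10 to 6 in the endothelial list, from 4 to 1 in the alveolar type 1 list and from 5 to 2 in the list of RGM, neogenin and BMP genes, and from 0 to 2 in the T cell list.

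**Figure D2:**
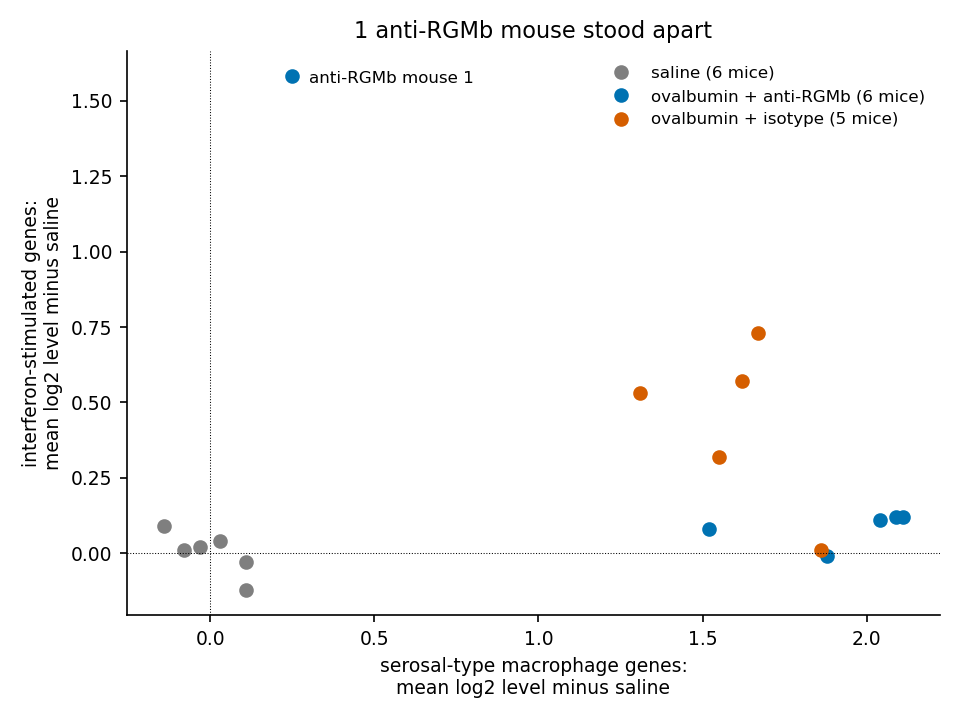
Each point is 1 of 17 mice, placed by the mean log2 level of 14 serosal-type macrophage genes (horizontal) and of 27 interferon-stimulated genes (vertical), both minus the saline mean of its experiment. Anti-RGMb mouse 1 lies at 0.25 and 1.58, while the other 5 anti-RGMb mice are at or below 0.12 on the vertical axis.

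Dendritic and lymphoid lists were raised in part, by smaller amounts (4.26% of all genes were higher). Of 31 dendritic cell genes 17 were higher (median 0.40), among them the lectin genes Mgl2 (1.76 ± 0.12) and Clec10a (1.51 ± 0.08) and Irf4 (0.96 ± 0.08), a transcription factor of type 2 dendritic cells and plasma cells. T cell genes were higher in 7 of 27 cases (median 0.16) and regulatory T cell genes in 9 of 20 (0.31). Foxp3, the defining factor of regulatory T cells, stood at 0.31 to 0.57 (median 0.34) in anti-RGMb mice, -0.13 to 0.08 in saline mice and 0.56 to 1.07 in isotype mice (0.38 ± 0.07, adjusted p = 0.00322), while Il10, a suppressive cytokine gene, did not pass (-0.06, interval -0.37 to 0.26). The receptor genes Icos, Il2ra and Pdcd1, which activated T cells carry, rose by 0.78, 0.89 and 0.74. In the B cell list 3 of 25 members were higher (5 without anti-RGMb mouse 3-2), with Cxcl13, the chemokine of B cell follicles, at 0.33 to 1.96 (1.22 ± 0.17) in anti-RGMb mice and 2.72 to 3.51 in isotype mice.

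Plasma cell genes were uneven between mice: 2 of 17 were higher, Jchain and Irf4, and 6 without isotype mouse 1. Ighm, the heavy chain of IgM, reached 0.03 to 2.39 in anti-RGMb mice (1.35, adjusted p = 0.0832) and passed without anti-RGMb mouse 1 or isotype mouse 1 and with only the 12 arrays in the fit (adjusted p = 0.0087). Neutrophil and interleukin 1 genes were higher in 6 of 28 cases (median 0.32), with Retnlg of neutrophils at 1.29 ± 0.19 (0.42 in mouse 1) and the interleukin 1 receptor antagonist gene Il1rn at 0.68 ± 0.14. Other neutrophil genes stayed nearer to saline. S100a8, S100a9 and Ngp were at -1.39, -0.98 and -1.51 in anti-RGMb mouse 1, with medians of 0.21, 0.44 and 0.32 in the other anti-RGMb mice. They were read per mouse only, and were not followed through the alternative fits. Of 28 genes of type 1, type 17 and cytotoxic responses 1 was higher, near the share of all genes (4.26%). It was Cxcl9, an interferon-induced chemokine (1.21, or 0.92 without mouse 1, which stood at 2.53). The count was 2 without anti-RGMb mouse 3-2 or isotype mouse 2-2. Eicosanoid genes were higher in 11 of 32 cases, among them Alox5ap, which serves leukotriene synthesis (0.74 ± 0.05), and the thromboxane synthase gene Tbxas1 (1.14 ± 0.07).

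Cell division genes rose almost throughout, where 4.26% of all genes were higher. Of 35 measured genes 33 were higher under anti-RGMb and 0 lower (median 0.88, 1.84 in isotype mice), and all 35 were lower than under isotype antibody (10% of all genes were, and the list's median was -0.94). Their mean level was 0.73 to 0.94 in anti-RGMb mice, -0.37 to 0.21 in saline mice and 1.32 to 2.11 in isotype mice. Top2a, the topoisomerase of dividing cells, reached 1.19 to 1.41 (median 1.30) in anti-RGMb mice, -0.80 to 0.44 in saline mice and 1.99 to 2.73 in isotype mice (1.30 ± 0.17 over saline, adjusted p = 5.25e-05). Mki67, the Ki-67 antigen, rose by 1.30 ± 0.16, Cdk1, the mitotic kinase, by 0.93 ± 0.14, and Ube2c, which marks mitotic cyclins for destruction, by 0.85 ± 0.10. Leaving out 1 mouse gave 32 to 34 members higher.

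The promoters of 3 of these genes are shown because the list shares sequence elements that its choice did not use. The motifs are CCAAT, the box that NF-Y binds, and TTTGAA, the core of the cell cycle homology region, on either strand (ATTGG and TTCAAA are their reverse complements, and TTCAAA can begin a match to the STAT6 spacing), and capitals mark matches. CCAAT was found in 23 of 32 promoters of 30 list genes (71.9%) against 37.4% of the promoters of all genes tested, and TTTGAA in 21 of 32 (65.6%) against 14.8%. TTTGAA was also in 7 of the 15 promoters of the largest rises (46.7%). These are counts of letters in RefSeq promoters of GRCm38.p6, 250 bases before the start as printed and 50 after it, and say nothing of binding in these lungs.
Top2a (chr11:99024190-99024439, minus strand): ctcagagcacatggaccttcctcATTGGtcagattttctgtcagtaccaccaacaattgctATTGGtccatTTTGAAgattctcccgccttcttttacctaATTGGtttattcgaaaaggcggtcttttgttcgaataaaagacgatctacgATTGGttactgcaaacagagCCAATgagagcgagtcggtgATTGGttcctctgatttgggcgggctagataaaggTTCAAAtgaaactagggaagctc
Cdk1 (chr10:69352913-69353162, minus strand): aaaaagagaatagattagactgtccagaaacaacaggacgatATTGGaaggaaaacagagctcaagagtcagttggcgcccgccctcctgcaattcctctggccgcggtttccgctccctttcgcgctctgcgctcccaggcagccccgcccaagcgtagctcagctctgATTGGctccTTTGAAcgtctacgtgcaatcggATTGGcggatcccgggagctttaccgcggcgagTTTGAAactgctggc
Ube2c (chr2:164769679-164769928, plus strand): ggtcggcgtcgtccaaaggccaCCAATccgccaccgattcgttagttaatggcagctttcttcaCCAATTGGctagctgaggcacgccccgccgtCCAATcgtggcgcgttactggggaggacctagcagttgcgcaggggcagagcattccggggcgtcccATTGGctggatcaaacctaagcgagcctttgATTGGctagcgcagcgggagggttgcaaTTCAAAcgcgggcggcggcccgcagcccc

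**Figure D3:**
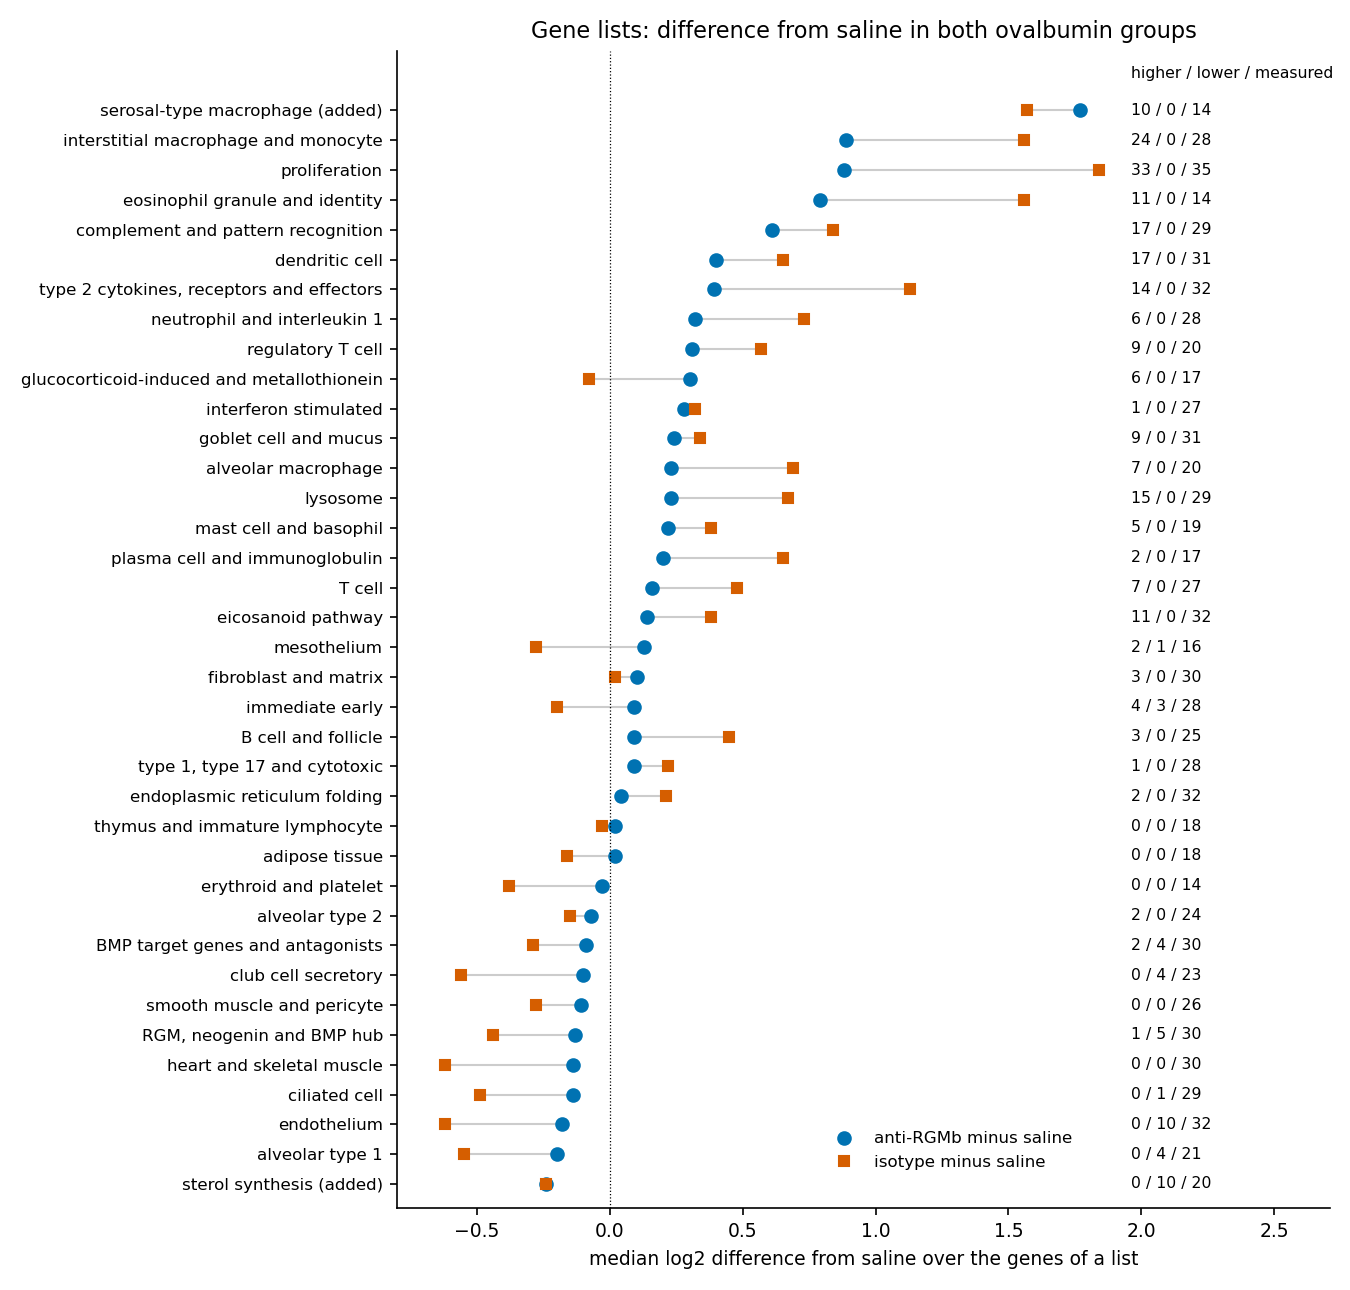
Median log2 difference from saline over the genes of each list, for anti-RGMb mice and isotype mice, with the number of members called higher, called lower and measured for anti-RGMb minus saline. Cell division genes (0.88 against 1.84) and interstitial macrophage genes (0.89 against 1.56) have medians between saline and isotype, and the lists marked as added were put together after values had been seen.

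Falls below saline were small. The largest was that of Pon1, which encodes paraoxonase 1, at -1.21 to -0.81 (median -1.03) in anti-RGMb mice, -0.22 to 0.42 in saline mice and -4.21 to -2.44 in isotype mice. The 3 groups did not overlap, and the differences were -1.01 ± 0.22 from saline (adjusted p = 0.00669) and 2.12 from isotype (adjusted p = 8.06e-06). Scel (sciellin), an epithelial envelope protein gene, fell by 0.75 ± 0.11, Col12a1, a collagen of fibril surfaces, by 0.81 ± 0.16, and Ccn1, a matricellular protein gene, by 0.71 ± 0.09. Also called were Ecm2 (-0.57), Grp (-0.56), the peptide gene of neuroendocrine cells, Myct1 (-0.53), Ces1g (-0.52) and Epb41l3 (-0.51). Igfbp3, which binds insulin-like growth factors, was at -0.74 to -0.40 in anti-RGMb mice and -2.18 to -1.35 in isotype mice (-0.56 from saline).

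Of the 15 largest falls 10 stayed called in each of the 17 fits that left out 1 mouse. Esm1, an endothelial secreted proteoglycan gene (-0.75), lost its call without anti-RGMb mouse 2 or 1-2 (adjusted p up to 0.0531). Cdh13, T-cadherin (-0.58), lost it without anti-RGMb mouse 2 or saline mouse 3 or 3-2 (up to 0.0548), and Trim13 (-0.50) without anti-RGMb mouse 2 or 3-2 or saline mouse 1, 1-2 or 3-2 (up to 0.0736). Slitrk6 (-0.60) lost it without anti-RGMb mouse 2 or 3-2 or saline mouse 1, 1-2, 2-2 or 3-2 (up to 0.0771), and Igfbp2 (-0.54) without anti-RGMb mouse 1, 2 or 3 or saline mouse 2, 3, 1-2, 2-2 or 3-2 (up to 0.0967).

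**Figure D4:**
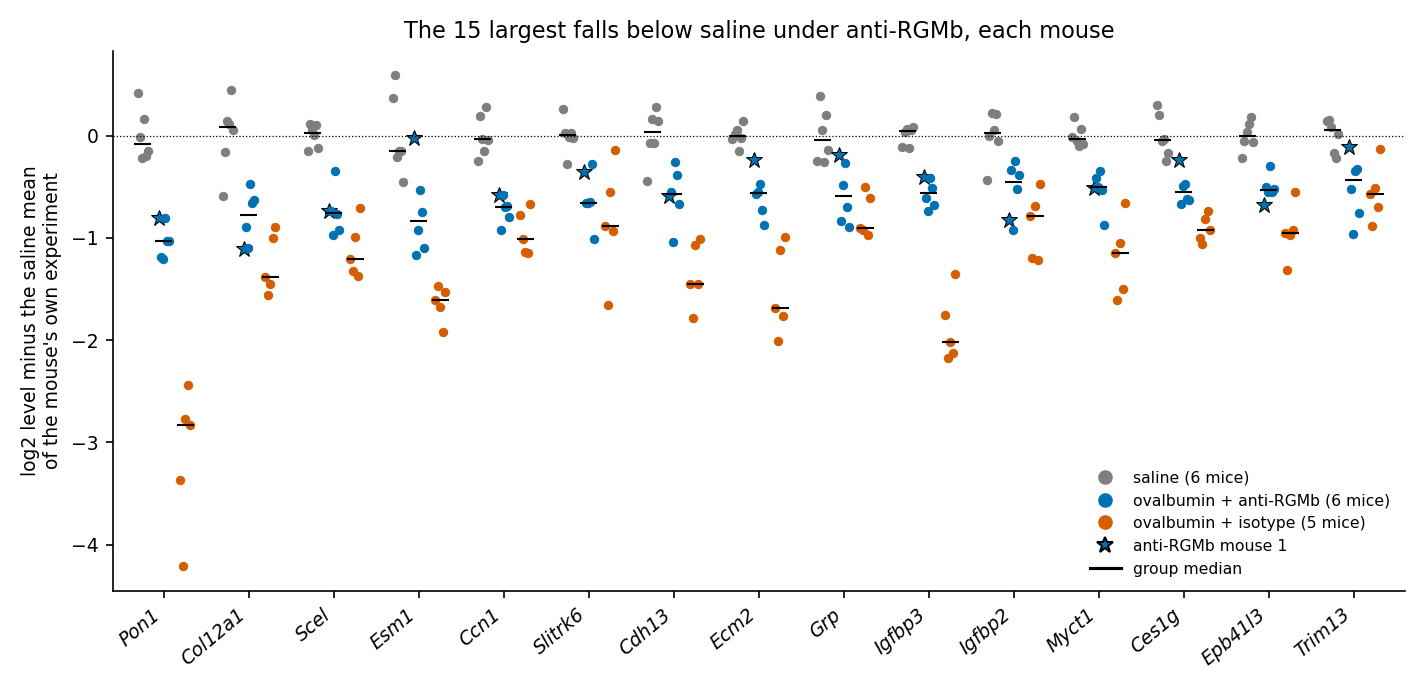
Log2 level of the 15 genes with the largest fall below saline, relative to the mean of that experiment's saline mice, with each mouse as a point (6 saline, 6 anti-RGMb and 5 isotype), bars at group medians and a star for anti-RGMb mouse 1. Pon1 lies at -1.21 to -0.81 under anti-RGMb and at -4.21 to -2.44 under isotype antibody.

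Among structural cell types, endothelial, alveolar type 1 and club cell lists had 4 to 10 members below saline, where 2.24% of all genes were lower. Of 32 endothelial genes 10 were lower and 0 higher (median -0.18, -0.62 in isotype mice), and their mean level was -0.28 to -0.13 in anti-RGMb mice, -0.05 to 0.06 in saline mice and -0.76 to -0.38 in isotype mice. Apln, the apelin peptide gene, was at -0.48, Bmx, a tyrosine kinase gene, at -0.45, and Edn1 (endothelin 1) at -0.41. The endothelial count was 5 without anti-RGMb mouse 3 or saline mouse 1-2, and 6 without anti-RGMb mouse 1 or saline mouse 2-2. Alveolar type 1 genes had a median of -0.20 (-0.55 in isotype mice), with mean levels of -0.26 to -0.15 in anti-RGMb mice and -0.13 to 0.08 in saline mice. Of these 21 genes 4 were called lower, a count of 0 without anti-RGMb mouse 2 or 3 or saline mouse 3, 1 without anti-RGMb mouse 1, 2 without saline mouse 1-2, 7 without saline mouse 1, 9 without isotype mouse 1-2, 10 without isotype mouse 3.

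The counts that follow stand beside 4.26% of all genes higher and 2.24% lower under anti-RGMb. Club cell genes were lower in 4 of 23 cases (median -0.10, -0.56 in isotype mice), and their mean level was -0.25 to 0.26 in anti-RGMb and -0.14 to 0.24 in saline mice. Scgb3a2, a secretoglobin, was at -0.71 to -0.21 in anti-RGMb mice and -0.21 to 0.18 in saline mice (-0.45 ± 0.10, adjusted p = 0.00697), and the flavin monooxygenase gene Fmo1 fell by 0.28 ± 0.06. Of 29 ciliated cell genes 1 was lower, near the share of all genes (2.24%). It was Tppp3, a tubulin-binding protein gene (-0.44 ± 0.06). In isotype mice 26 of 29 were lower, where 21% of all genes were. The anti-RGMb count was 2 without anti-RGMb mouse 3 or 2-2, isotype mouse 3, or saline mouse 2, 3 or 1-2, and 4 without isotype mouse 1-2. Alveolar type 2 genes had 2 of 24 higher and 0 lower (median -0.07), the higher ones being Sftpd, a surfactant collectin gene (0.32 ± 0.06), and the chitinase-like gene Chil1 (0.30 ± 0.06). Mesothelial genes had 2 of 16 higher, Prg4 and the protease inhibitor gene Slpi (0.80 ± 0.12), and 1 lower, the keratin gene Krt19 (-0.33, lost without anti-RGMb mouse 2, 1-2 or 3-2 or saline mouse 1-2 or 3-2), with a median of 0.13. In the fibroblast and matrix list 3 of 30 genes were higher, with the protease inhibitor gene Timp1 at 1.18 to 1.78 (median 1.49) in anti-RGMb mice, -0.27 to 0.26 in saline mice and 2.48 to 3.54 in isotype mice. Smooth muscle genes had 0 of 26 called by limma in either direction, and 1 when anti-RGMb mouse 1 or isotype mouse 2-2 was left out.

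Neither the antibody's target Rgmb nor the neogenin gene was called, while the PD-L2 gene was. Rgmb stood at -0.26 to 0.03 (median -0.14) in anti-RGMb mice, -0.10 to 0.13 in saline mice and -0.46 to -0.39 in isotype mice, a difference from saline of -0.13 (interval -0.23 to -0.02, adjusted p = 0.173). The neogenin gene Neo1 differed by -0.05 (-0.17 to 0.06), and the BMP receptor genes Bmpr1a and Bmpr2 by -0.14 and -0.18, none past the threshold. Pdcd1lg2, the PD-L2 gene, was at 1.11 to 1.58 (median 1.34) in anti-RGMb mice, -0.15 to 0.24 in saline mice and 2.93 to 4.08 in isotype mice. Its 3 groups did not overlap (1.36 ± 0.14 over saline, adjusted p = 4.99e-06, and -2.35 against isotype, adjusted p = 1.65e-07).

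Of 30 genes of RGM proteins, neogenin, netrins, BMPs and their receptors, 1 was higher and 5 lower (median -0.13, -0.44 in isotype mice). Of all genes 4.26% were higher and 2.24% lower. Ntn4, a netrin gene, fell by 0.38 ± 0.07. Rgma (-0.23), the BMP genes Bmp2 (-0.32) and Bmp6 (-0.29) and the BMP type I receptor gene Acvrl1 (-0.23) were also called. Of these calls, that of Rgma was lost without anti-RGMb mouse 2, 3, 1-2 or 2-2 or saline mouse 1, 3, 1-2 or 2-2 (adjusted p up to 0.0878), and that of Bmp2 without anti-RGMb mouse 1, 2, 3, 1-2 or 3-2, isotype mouse 1 or 2, or saline mouse 1, 2, 1-2 or 3-2 (up to 0.118). Bmp6 lost it without anti-RGMb mouse 1, 2 or 3 or saline mouse 1, 3, 1-2, 2-2 or 3-2 (up to 0.0988), and Acvrl1 without anti-RGMb mouse 1, 3 or 2-2 or saline mouse 2, 3, 1-2 or 2-2 (up to 0.0878). The count of lower genes was 1 without anti-RGMb mouse 3 or saline mouse 1-2, 2 without anti-RGMb mouse 1 or 2 or saline mouse 1, 3 or 2-2, 3 without anti-RGMb mouse 1-2 or 2-2. Bmp4 missed the threshold (-0.25, adjusted p = 0.0676) and passed without isotype mouse 3, 1-2 or 2-2.

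BMP target genes were mixed, and their counts stand beside 4.26% of all genes higher and 2.24% lower. Id1 and Id2, direct targets, differed by -0.03 (interval -0.16 to 0.11) and -0.02 (-0.15 to 0.10), while Id3 fell by 0.34 ± 0.08 (adjusted p = 0.0165), with anti-RGMb mice at -0.60 to -0.12 and saline mice at -0.12 to 0.10. The inhibitory gene Smad6 was at -0.23 (adjusted p = 0.232). Of 30 targets and antagonists 2 were higher, Inhbb and the activin antagonist gene Fst (0.54 ± 0.11), and 4 were lower, a count of 1 without saline mouse 1-2, and 2 without anti-RGMb mouse 2 or 3 or saline mouse 2-2.

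Genes of sterol synthesis had a small negative median in both ovalbumin groups. This list of 20 measured genes was also put together after values had been seen: 10 were lower and 0 higher under anti-RGMb, with a median of -0.24 (-0.24 in isotype mice). Idi1 (isopentenyl diphosphate isomerase) was at -0.67 to -0.24 (median -0.40) in anti-RGMb mice, -0.10 to 0.08 in saline mice and -0.78 to -0.17 in isotype mice, a difference of -0.43 ± 0.09 from saline and -0.02 from isotype (interval -0.23 to 0.19). Lanosterol synthase, Lss, fell by 0.42 ± 0.08, methylsterol oxidase, Msmo1, by 0.42 ± 0.08, and squalene synthase, Fdft1, by 0.34 ± 0.05. Insig1, which holds back this pathway when sterols are plentiful, fell by 0.31 ± 0.05. Anti-RGMb and saline mice did not overlap for any of these 5 genes, but they are called ones, and 6.84% of all genes had no overlap. Hmgcs1 (-0.27, adjusted p = 0.0555) and Sqle (-0.29, adjusted p = 0.136) were not called. Hmgcs1 passed without anti-RGMb mouse 3-2 or isotype mouse 1-2 or 2-2, and Sqle without isotype mouse 2-2. For Sqle the anti-RGMb mice (-0.52 to -0.07) overlapped the saline mice (-0.14 to 0.19).

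A few genes were on average higher under anti-RGMb than in both other groups. Past the threshold against saline and, the same way, against isotype were 12 genes higher (0.0608%) and 0 lower by limma. Both comparisons use the same 6 anti-RGMb arrays, so a high value by chance there raises both, and passing both is no independent evidence. Ifitm6, an interferon-induced membrane protein gene, was at 0.24 to 1.72 (median 1.07) in anti-RGMb mice, -0.38 to 0.22 in saline mice and -0.31 to 0.46 in isotype mice (0.98 ± 0.22 over saline, adjusted p = 0.0101). Inhbb, the activin beta B chain, was at 0.23 to 0.78 (median 0.47) in anti-RGMb mice, -0.07 to 0.10 in saline mice and -0.20 to 0.06 in isotype mice (0.50 ± 0.08, adjusted p = 0.00104). The glucocorticoid-induced gene Tsc22d3 rose by 0.41 ± 0.08 and the transcription factor gene Cebpd by 0.50 ± 0.11. Also named were Tmem252 (0.41), Tcim (0.39), Cldn1 (0.37) and Pilrb2 (0.30). Anti-RGMb mice overlapped isotype mice for Ifitm6, Cebpd, Tcim, Cldn1 and Pilrb2, and saline mice for Cebpd, Tmem252, Tcim and Pilrb2. The call of Tmem252 against saline (adjusted p = 0.05 after rounding) was lost without anti-RGMb mouse 2, 3, 1-2 or 2-2, isotype mouse 1, 2, 1-2 or 2-2, or saline mouse 2, 3, 1-2, 2-2 or 3-2, and that of Tcim without anti-RGMb mouse 2 or 1-2 or saline mouse 3 or 2-2. The call of Cldn1 was lost without anti-RGMb mouse 2, 3, 1-2 or 2-2, isotype mouse 1, or saline mouse 1, 2, 3, 1-2, 2-2 or 3-2, and that of Pilrb2 without anti-RGMb mouse 1, 2, 3, 1-2 or 2-2, isotype mouse 2, or saline mouse 1, 2, 3, 1-2 or 2-2.

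Of 17 genes induced by glucocorticoids or metals 6 were higher (median 0.30, -0.08 in isotype mice), where 4.26% of all genes were higher. Their mean level was 0.18 to 0.44 in anti-RGMb mice, -0.09 to 0.15 in saline mice and 0.00 to 0.30 in isotype mice. Besides Tsc22d3 they included Fkbp5, a chaperone of steroid receptors (0.58 ± 0.10, and 1.10 in isotype mice), the metallothionein gene Mt2 (1.10 ± 0.19, and 1.42) and Lcn2, lipocalin 2 (0.83 ± 0.11, and 1.22).

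Some genes with large changes in isotype mice were not called under anti-RGMb although anti-RGMb and saline mice were separated. Acod1, which makes itaconate in macrophages, was at 0.49 to 0.78 (median 0.61) in anti-RGMb mice, -0.16 to 0.18 in saline mice and 0.66 to 3.68 in isotype mice. Its difference of 0.61 ± 0.30 missed the threshold (adjusted p = 0.284) in the fit, which takes 1 spread from all 3 groups, and passed with only the 12 arrays (adjusted p = 7.8e-05). Tm4sf19 (0.66, adjusted p = 0.117 and, with 12 arrays, 1.91e-05), Npl (0.58, 0.0663 and 0.000127) and Mmp13 (0.41, 0.245 and 0.000238) did likewise. Tm4sf19 also passed without isotype mouse 3, Npl without isotype mouse 3, 1-2 or 2-2 or saline mouse 1 and Mmp13 without isotype mouse 2-2. Chl1 (0.26, interval -0.13 to 0.66) and Ly6i (1.22, with mouse 1 at 4.08, or 0.61 without it, adjusted p = 0.0639) did not pass in the 12-array fit either. For Chl1 anti-RGMb mice (0.07 to 0.38) and saline mice (-0.23 to 0.27) overlapped. Among large isotype falls, the muscle genes Tnnt2 (-0.29) and Myh6 (-0.19) were not called, and anti-RGMb and saline mice overlapped for both.

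Rises were alike in both experiments in direction and median size, and falls in direction. All 1284 called genes had the same sign in each, which the choice on both experiments favours, so genes called in 1 experiment were also read in the mice of the other. Of 644 genes called higher in experiment 1 (3.26% of all tested), 98.8% were above saline in experiment 2, with a median of 0.50 against 0.63, and of 119 called lower (0.603%) 96.6% were below it, with a median of -0.22 against -0.38. Of 524 called higher in experiment 2 (2.65%), 99.2% were above saline in experiment 1 (median 0.64 against 0.65), and of 129 called lower (0.653%) 90.7% were below it (-0.19 against -0.39). Of the rises called in experiment 1 61% were also called in experiment 2, and 75% the other way, but of the falls only 17.6% and 16.3% were, with 1 spread pooled over both experiments. The test of the difference between experiments called 0 genes (limma interaction, 598 genes or 3.03% at an unadjusted p under 0.05, smallest adjusted p 0.698). The genes with the smallest interaction p included Cxcl13, at 1.79 in experiment 1 and 0.64 in experiment 2, Dusp1, an early response phosphatase gene, at 0.61 and -0.01, Plbd1 at 0.86 and 0.25, and Clec4b2 at 0.19 and 0.79.

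**Figure D5:**
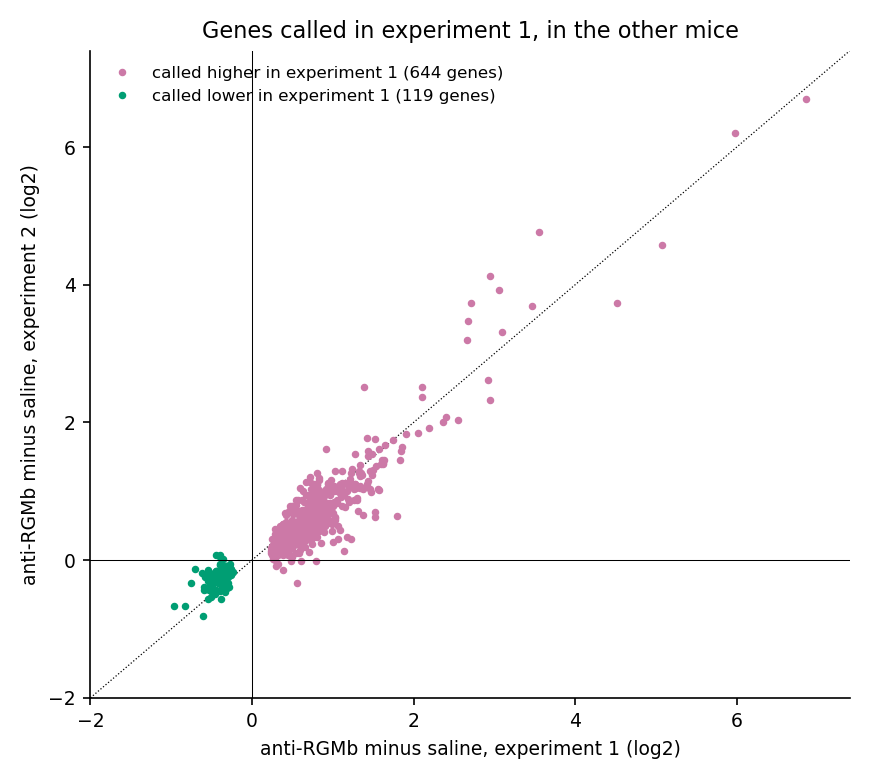
Anti-RGMb minus saline (log2) in experiment 1, horizontal, and in experiment 2, vertical, for the 644 genes called higher and the 119 called lower in experiment 1, each point a gene; the line marks equal differences. On the same side of saline in the mice of experiment 2 were 98.8% of the higher and 96.6% of the lower genes.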

How the data were processed

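Lung RNA of 17 mice was hybridised to arrays, and the values are intensity on a linear scale as the authors deposited them, made with RMA per the submitters' processing notes, which give no version. Of 24679 probe sets, 21354 had 1 gene symbol in the platform annotation, 1275 several and 2050 none. The brightest probe set stood for each of 893 genes with more than 1, which left 19751 genes. The deposited intensity was turned to log2 with no constant added, and limma 3.58.1 in R 4.3.3 was fitted to all 17 arrays, with a mean per group and the experiment as a fixed term, so 1 spread was estimated from 3 groups. A gene was called at an adjusted p (Benjamini-Hochberg over all genes) under 0.05. Errors are standard errors and intervals are 95%. The number of arrays limits the precision. The labels do not say that same-numbered mice were paired: residuals of the 6 same-numbered pairs correlated at -0.6 to 0.11, 2 of them over 0.1, so the numbers were not taken as pairs.

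The genes named were the 15 largest rises and 15 largest falls among calls whose sign the 2 experiments share, up to 5 members per list with the smallest p and members of well known role, the antibody's target pathway, the 10 largest isotype rises and falls among genes not called, the 8 largest changes past isotype, and the 6 smallest interaction p-values. Others were named for their role or after their values were seen. The genes, lists and tests were chosen with earlier results of these data known. In data simulated for anti-RGMb minus saline on 19751 genes, 96 of 100 changes of 0.5 log2 units and 99 of 100 of 1 unit were recovered, with 10 false among 205 calls. The simulated noise was normal, independent between genes and of the same spread in all groups. It held no outlying mouse and no gene with a wider isotype spread, so recovery in these lungs may be lower. Alternatives covered the arrays in the fit, the replicate block, the experiment term, scaling, a constant before log2, dim genes, probe sets, the variance model and each mouse left out.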

Additional observations from a re-analysis of the deposited data

Results flagged for a closer look

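Among 147 genes and the list means, 368 groups of anti-RGMb or saline mice were examined for 1 mouse far from the rest of its group, by the gap to its nearest neighbour over the group's range. Chance marks about 1 in 20 groups of independent values. Saline levels are centred on the saline mean of their own experiment, so this rate does not hold for them. Counts in anti-RGMb and saline mice are therefore not comparable, and some genes were named after their values were seen. A mouse stood out in 26 groups, 25 of them anti-RGMb, and in 16 it was anti-RGMb mouse 1. Relative to saline (log2), anti-RGMb mouse 1 was low for Alox15 (1.15), Arg1 (0.10), Cd5l (0.85), Chil3 (2.25), Il13 (-0.29), Prg4 (0.17) and Serpinb2 (0.61), and for the mean of the type 2 list (0.71) and of the serosal-type macrophage list (0.25). It was high for Cxcl9 (2.53), Foxp3 (0.57), Ifit1 (1.98), Irf7 (3.26), Ly6i (4.08) and Mx1 (2.21), and for the mean of the interferon list (1.58).

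Other anti-RGMb mice stood out for 1 gene or list each time. Mouse 3-2 was low for Bmp2 (-0.63), Bmx (-0.72), Cpa3 (0.65) and Myct1 (-0.87). Mouse 2-2 was low for Mki67 (1.02) and Pigr (0.62) and nearest to saline for Scel (-0.35). Mouse 1-2 was high for C1qa (1.88), and mouse 3 was high for the mean of the fibroblast and matrix list (0.29). Among saline mice, mouse 2-2 was apart for Il10 (-0.12).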

How the results depend on the processing

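Against 842 genes higher, 442 lower and 122 at least 2-fold higher, counts moved by over 1.5 times under these alternatives. Without a term for the experiment, 10 were higher, 10 at least 2-fold higher and 0 lower by limma (101 genes at an unadjusted p under 0.05). With only the 12 anti-RGMb and saline arrays 873 were lower, with array medians subtracted 700, and without the 40% of genes of lowest level 680. With the mouse number as a replicate block 233 were lower, and Muc5ac, Muc5b, Epx, Igfbp2, Trim13 and Id3 were among the named calls lost; the labels do not say that the numbers pair the mice. Experiment 1 alone had 119 lower, and experiment 2 alone 524 higher and 129 lower. Leaving out 1 mouse gave 207 to 654 lower, 689 to 961 higher and 104 to 128 at least 2-fold higher. The count of genes that differed between experiments was 0 under each alternative run, and among the genes named no called value changed sign; over all 1284 calls this was checked only without anti-RGMb mouse 1, with 0 changes. Genes dim in saline and 6 mice a group limit the precision of small changes.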
